A study of Mus musculus with 16 samples.

Results

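The cytosolic ribosomal protein genes were taken as every gene of the mouse count table whose symbol has the form Rpl or Rps followed by a digit, together with Rplp0, Rplp1, Rplp2 and Rpsa, leaving out pseudogene and binding protein symbols and the Rps6k kinases. The rule matched 92 of the 54532 genes in the table, and 87 of these were among the 17555 genes kept by a filter on low counts over the 4 groups. By their symbols, these 87 members belong to the large (60S, 51 genes) and the small (40S, 36 genes) subunit. Of the 87, 5 are annotated as pseudogenes without a coding sequence (Rps4l, Rpl6l, Rpl37rt, Rps3a2 and Rps3a3), and they are counted with the members throughout. The 5 matched genes that were not kept had between 0 and 64 counts summed over all mice: Rpl3l, a form known from muscle, had 64, Rpl39l had 49 and Rpl32l had 23, while Rps12l1 and Rpl10l had 0. The least abundant member that was kept was Rpl36al, at 0.459 CPM (counts per 1000000 of the scaled library total) on average over 15 mice.

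RNA of the hippocampus, enriched for poly(A) mRNA with oligo(dT) beads, was sequenced from 16 mice. There were 4 WT mice on vehicle water, 4 WT mice given NR (WT + NR), 4 mice with the Tau transgene on vehicle water (hTau.P301S) and 4 transgenic mice given NR (hTau.P301S + NR). The transgene encodes P301S mutant human Tau, and its Thy1 promoter is active mainly in neurons. NR (nicotinamide riboside), a precursor of NAD+, was given at 6 mM in the drinking water, and the other mice drank vehicle water. The labels give treatment over 3 months, from 12 to 15 months of age, whereas the study's text gives younger ages and in one place a shorter treatment. The labels give no sex or litter, each library is 1 mouse, and mice that share a number in different groups are different animals.

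1 library stood apart before any comparison was made. In hTau.P301S replicate 1, mitochondrially encoded genes took 14.4% of the counts (4.48 to 7.07% in the other 15 mice) and 19467 genes had a count (22199 to 24918). Total counts ranged from 16490261 to 21915362 per mouse and were 17096764 in this library. Every comparison of the members as a set that uses the hTau.P301S group is therefore given with and without it. Some later results are given only without it and name the mice used. Among the other 15 mice, WT replicate 2 and WT + NR replicate 3 also stood apart in their markers: Slc17a7, the vesicular glutamate transporter of hippocampal excitatory neurons, was at 252 and 313 CPM there and at 832 to 1842 CPM in the other 14 mice, hTau.P301S replicate 1 included. Neuronal markers were detected in every library, their sum over 9 genes ranging from 3724 CPM in hTau.P301S replicate 1 to 11045 CPM. In bulk tissue, a smaller number of cells of one type and less RNA per cell cannot be told apart.

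Ribosomal proteins assemble with ribosomal RNA into the 2 ribosomal subunits. The small subunit decodes the mRNA and the large subunit forms the peptide bonds. The mRNAs of ribosomal proteins are among the most abundant of any cell, and many begin with a C followed by a run of pyrimidines, the 5′ terminal oligopyrimidine (TOP) tract, through which mTORC1 and LARP1 control their translation together. In neurons they are found in the cell body as well as in axons and dendrites, where locally made ribosomal proteins can join existing ribosomes. Because these genes have given rise to a great many processed pseudogenes, their short reads can map to more than 1 place.

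The TOP tract could be read for the 63 members with a transcription start listed by RefSeq (GRCm38.p6). A C followed by at least 4 pyrimidines stood at a listed start in 14 of them (22.2%) and in 3.01% of the 27025 genes with a listed start. A C followed by 6 pyrimidines lay within the window from 10 bases before to 17 bases after the start in 29 members (46%) and in 14.1% of all these genes. The windows of 30 bases below show the tract, in capitals and beginning at the listed start, in members of both subunits that carry it, Rps18 among them because the comparisons below turn on it. A window without these letters says nothing about how the mRNA is translated. Whether the listed starts are those used in these mice was not tested. The share with a tract at a listed start is therefore not the share of TOP mRNAs among the members.
Rpl15 (chromosome 14, 18270967 to 18270996, minus strand): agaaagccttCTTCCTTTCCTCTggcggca
Rps18 (chromosome 17, 33955646 to 33955675, minus strand): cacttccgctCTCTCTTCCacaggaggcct
Rps6 (chromosome 4, 86857348 to 86857377, minus strand): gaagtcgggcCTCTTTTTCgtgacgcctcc
Rplp2 (chromosome 7, 141447641 to 141447670, plus strand): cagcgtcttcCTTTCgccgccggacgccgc

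Levels between genes were compared per length, as TPM, that is counts divided by the gene length in the table and scaled to the same total in every mouse. Over the 15 mice without hTau.P301S replicate 1, the members ran from 1.20 to 3256 TPM with a median of 273 TPM. Rplp1, an acidic protein of the large subunit stalk that recruits translation factors, was highest at 3256 ± 1064 TPM (SD, n = 15). Rps15 followed at 1513 ± 438 TPM. Rps3a1 (1083 ± 267 TPM) and Rpl36 (1037 ± 330 TPM) came next and differed from each other by less than their SD. Rpl4 (924 ± 91.2 TPM), Rpl19 (868 ± 177 TPM) and Rpl41 (830 ± 343 TPM) followed, and neighbours in this order differed by less than either SD. At the other end stood Rpl36al (1.20 ± 0.68 TPM), Rpl24 (2.76 ± 1.22 TPM), Rps10 (3.21 ± 0.90 TPM), Rpl13a (26.6 ± 6.63 TPM) and Rpl7l1 (42.8 ± 3.55 TPM). Rpl24, Rps10 and Rpl13a encode regular components of the cytosolic ribosome. Rpl36al, Rpl24, Rps10 and Rpl13a share more than 50% of their exonic bases on the same strand with another annotated gene, so their low values may hold only part of their reads and are uncertain. The overlapping genes Gm28037, RPS10-NUDT3 and Gm45713 had 0 counts in every mouse. Gm49383, which overlaps Rpl36al, had 1 count, in hTau.P301S + NR replicate 2. Where reads over the shared bases went was not tested. Ranking by the length of the principal transcript in place of the deposited length gave a Spearman rho of 0.78 with this order over the 87 genes.

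The ribosomal protein genes, with the pseudogenes among them, made up 1.06 to 2.45% of all counts in 15 mice and 9.55% in hTau.P301S replicate 1. In WT mice 1 to 4 the share was 1.68, 2.45, 1.11 and 1.21%. For the WT + NR mice it was 1.46, 1.11, 2.12 and 1.36%. In hTau.P301S mice it was 9.55, 1.16, 1.39 and 1.12%, and in hTau.P301S + NR mice it was 1.08, 1.47, 1.06 and 1.36%. The 4 groups overlapped, and the mean over the group was 1.61 ± 0.61% (SD, n = 4) in WT, 1.51 ± 0.43% for WT + NR, 1.24 ± 0.20% in hTau.P301S + NR, and 3.30 ± 4.17% in hTau.P301S, which became 1.22 ± 0.15% (n = 3) without replicate 1. Among the 15 other mice, WT replicate 2 and WT + NR replicate 3, the libraries with low Slc17a7, had the highest shares, and 72 of the 87 members were highest in WT replicate 2.

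**Figure D1:**
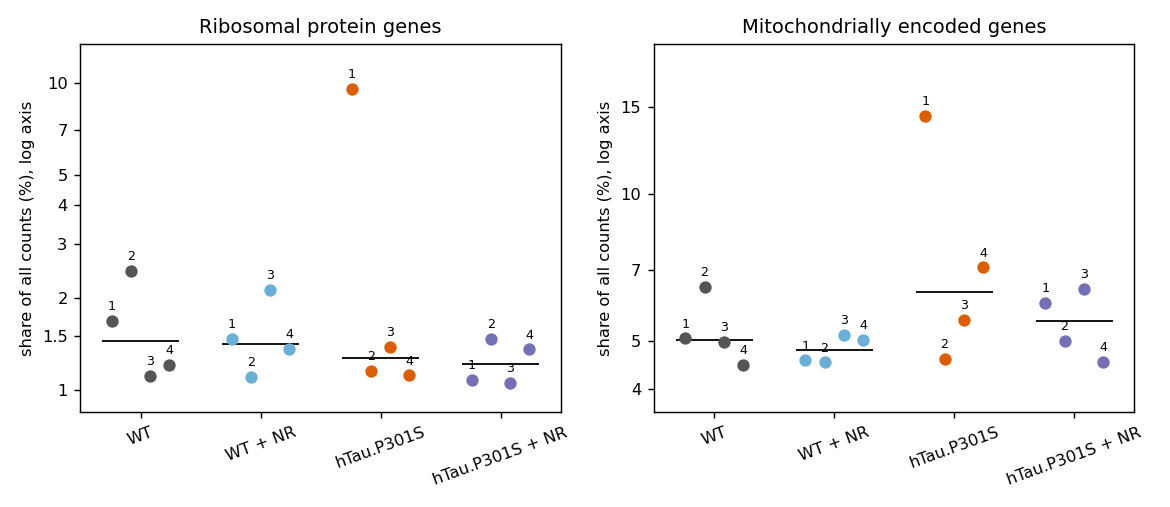
Share of all counts (%, log axis) taken by the 87 ribosomal protein genes (left) and by mitochondrially encoded genes (right) in each of 16 mice, with the replicate number beside each point and a line at the median of each group. hTau.P301S replicate 1, at 9.55% and 14.4%, lies above the other 15 mice on both axes.

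The excess in hTau.P301S replicate 1 extended over nearly the whole set. Relative to the mean log2 CPM of the other 15 mice, the 87 members were higher by a median of 3.44 on the log2 scale, against a median of -0.11 over all genes kept. The range ran from 0.93 for Rpl7l1, a large subunit paralog involved in ribosome biogenesis, to 5.07 for Rps27a, which is made as a fusion with ubiquitin. Of the members, 85 had their highest level in this mouse (31.8% of all genes kept did), and 80 exceeded the other mice by more than 2 on the log2 scale (9.06% of all genes kept). Rps27a was at 1952 CPM there and between 38.9 and 102 CPM in the others, Rplp1 at 8466 CPM against 239 to 854 CPM, and Rpl4, a core large subunit protein, at 1463 CPM against 401 to 658 CPM. Rps27 (4.60 on the log2 scale) and Rplp1 (4.28) followed Rps27a, and Rps3a3 (1.02) and Rps10 (1.13) stood next to Rpl7l1 at the low end. The 2 members that were not highest there were the pseudogenes Rps3a2 and Rps3a3. Both subunits shared the excess, with medians of 3.44 for the 60S and 3.40 for the 40S members.

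**Figure D2:**
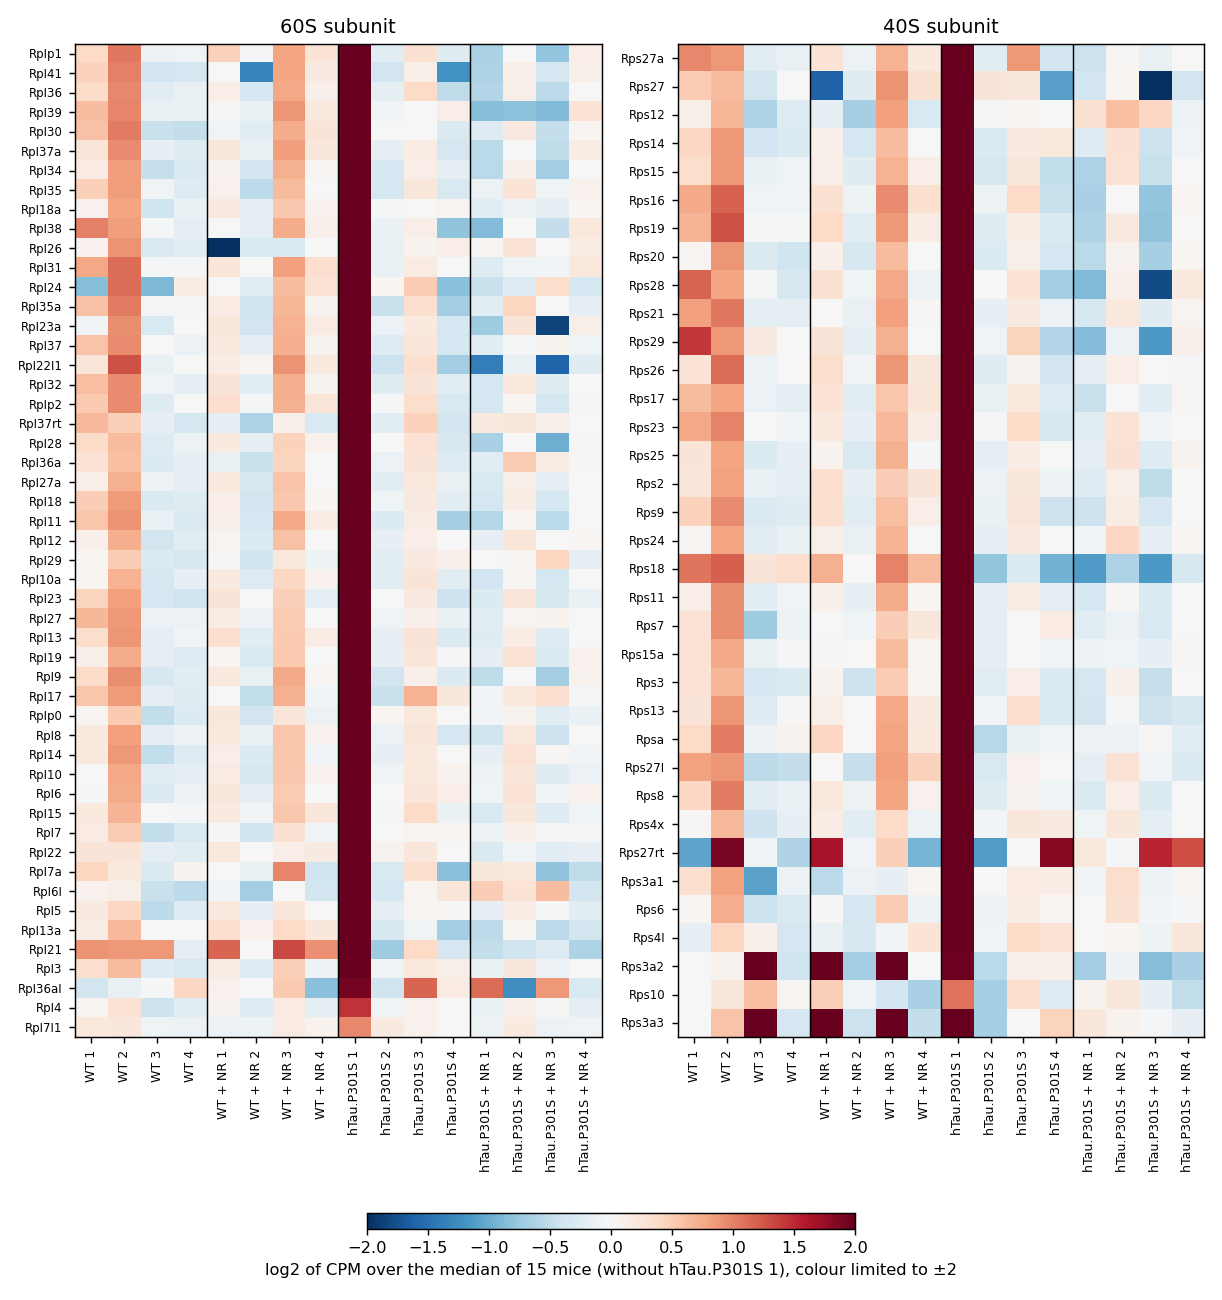
Level of the members (rows, those of the 60S subunit left and those of the 40S subunit right, 1 member not shown, ordered by their excess in hTau.P301S replicate 1) in each of 16 mice (columns), as log2 of the CPM over the median of the 15 other mice, with colours limited to ±2. The column of hTau.P301S replicate 1 is dark red from top to bottom except for Rpl4, Rpl7l1 and Rps10, and Rps3a2 and Rps3a3 are also dark in WT replicate 3 and WT + NR replicates 1 and 3.

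Other short mRNAs were also high in that library. Over the 87 members, the excess and the length of the principal transcript had a Spearman rho of -0.48. With the deposited length the rho was -0.20 over the members and -0.44 over all genes kept. Among all genes the median excess was 1.62 below 1000 bases and -0.77 from 5000 bases up, on the log2 scale. The members stayed between 3.24 and 3.60 in every length class, above the median of all genes of like length. Nuclear-encoded subunits of the respiratory chain had a median excess of 2.97 (80 genes), mitochondrial ribosomal proteins one of 2.14 (79 genes) and ribosomal protein pseudogenes one of 3.28 (66 genes). In contrast, 18 translation factors and other known TOP mRNAs had a median of 1.52, 34 genes of ribosome biogenesis 0.28 and 15 genes of the mTORC1 pathway -0.21. The median was -1.10 for 9 neuronal markers and -2.52 for 5 markers of the choroid plexus. The part of gene length, RNA quality or cell makeup in the excess was not tested.

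**Figure D3:**
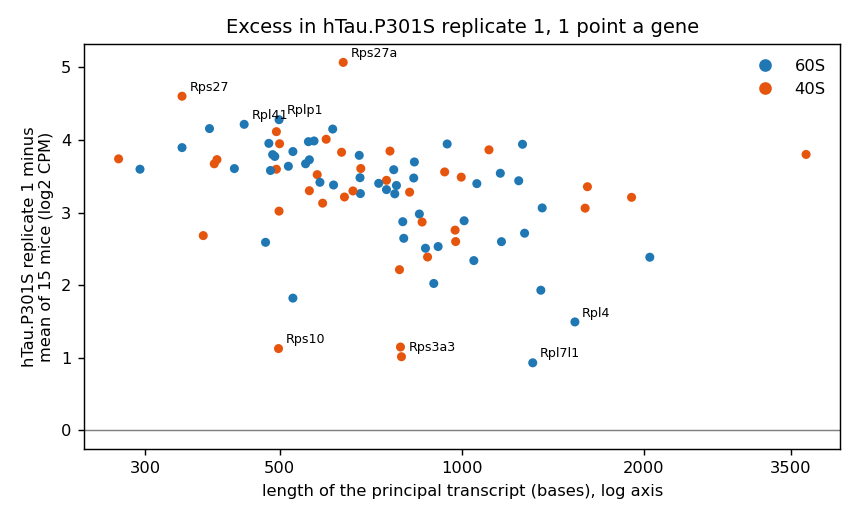
Excess of each of the 87 members in hTau.P301S replicate 1 over the mean of the other 15 mice (log2 CPM, vertical axis) against the length of the principal transcript (bases, log axis), coloured by subunit. All 87 points lie above 0, from Rpl7l1 at 0.93 to Rps27a at 5.07, and longer transcripts tend to lie lower (Spearman rho -0.48).

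The first comparison asked whether ribosomal protein mRNAs differed between hTau.P301S and WT mice. Of the 87 members, 85 were higher in hTau.P301S with all 8 mice (51.0% of all genes were), with a median log2 fold change of 1.54 (0.01 over all genes tested). A call needed an adjusted p (edgeR quasi-likelihood test) under 0.05 together with a log2 fold change beyond 0.5 in either direction. None of the members was called, where 0.00570% of all genes were, and 2 passed an unadjusted p of 0.05, namely Rps27a and Rps12 (2.30%, against 7.79% of all genes). Without hTau.P301S replicate 1 the direction turned: 10 members were higher and 77 lower (54.0% of all genes were lower), with a median of -0.30 (-0.03 over all genes), none called (0.0741% of all genes) and 4 at an unadjusted p under 0.05 (4.60%, against 11.8% of all genes). Those 4 were all lower: Rps18, Rpl13a, Rpl21 and Rpsa. Leaving out WT replicate 2 as well brought the median to -0.04, with 37 members higher.

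Rps18, a protein of the head of the small subunit, had the lowest unadjusted p of the members without replicate 1. Its level was 215, 235, 122 and 131 CPM in WT mice and 1006, 58.8, 83.6 and 52.8 CPM in hTau.P301S mice 1 to 4. Replicates 2 to 4 all lay below the lowest WT mouse and replicate 1 lay above the highest, so that the log2 fold change was 0.78 with a standard error (SE) of 0.94 (edgeR adjusted p = 0.751) with all mice and -1.43 with an SE of 0.28 (edgeR adjusted p = 0.198) without replicate 1. Rpl13a, a large subunit protein that also takes part in the interferon-gamma response, was at 17.6, 24.9, 15.8 and 15.8 CPM in WT and at 78.2, 12.7, 14.9 and 9.86 CPM in hTau.P301S mice. It too showed no overlap without replicate 1 (log2 fold change -0.58, SE 0.23, edgeR adjusted p = 0.405). These 2 members were the only ones of the 87 whose groups did not overlap in that setting, where 5.35% of all genes lay lower without overlap.

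The comparison of NR in hTau.P301S mice also depended on replicate 1, which belongs to the untreated group. With all 8 mice, each of the 87 members was lower with NR (51.5% of all genes were), with a median log2 fold change of -1.88 (-0.02 over all genes), and 37 had an unadjusted p under 0.05 (42.5%, against 13.0% of all genes). None was called with edgeR, where 0.00570% of all genes were. Without replicate 1 the median was -0.06 (-0.005 over all genes), 26 members were higher and 61 lower (50.7% of all genes were lower), none was called (0.165% of all genes) and 1 had an unadjusted p under 0.05 (1.15%, against 17.8% of all genes). That member was Rpl22, a large subunit protein with a paralog, Rpl22l1. It was at 600, 103, 115 and 98.7 CPM in hTau.P301S mice and at 80.9, 94.6, 84.9 and 88.2 CPM with NR. All 4 treated mice lay below all untreated ones, with a log2 fold change of -1.40 (SE 0.60, edgeR adjusted p = 0.369) and, without replicate 1, of -0.28 (SE 0.10, edgeR adjusted p = 0.207). Rpl22 was the only member without overlap, where 5.28% of all genes lay lower without overlap with all mice and 8.44% without replicate 1. For Rplp0, the scaffold of the stalk, the log2 fold change was -1.60 (SE 0.71) with all mice and -0.17 (SE 0.11) without replicate 1, and neither passed the test.

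In WT mice, NR moved no ribosomal protein gene beyond the spread between mice. With 8 mice, 23 members were higher and 64 lower (50.3% of all genes were lower), with a median log2 fold change of -0.06 (-0.0009 over all genes). None was called, as was none of all genes (0%), and none had an unadjusted p under 0.05 with edgeR (0.940% of all genes did). DESeq2 called no member either (0.0229% of all genes). The sign of the median rested on single mice: without WT replicate 2, 74 members were higher and the median was 0.18, and without WT + NR replicate 3, 6 were higher and the median was -0.24. Without WT + NR replicate 2, a mouse with a low share, 61 were higher and the median was 0.05. For Rplp1 the log2 fold change was 0.003 with an SE of 0.29, and for Rplp0 it was 0.01 with an SE of 0.24. A change of the size of these SEs could not be resolved with 4 mice against 4.

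Between the NR-treated groups, hTau.P301S + NR and WT + NR, most ribosomal protein genes lay lower in the Tau mice. Of the 87, 73 were lower (53.3% of all genes were) and 14 higher, with a median log2 fold change of -0.31 (-0.02 over all genes). None was called with edgeR (0.0513% of all genes were), while 19 had an unadjusted p under 0.05 (21.8%, against 6.19% of all genes), 18 of them lower. In 6 members every hTau.P301S + NR mouse lay below every WT + NR mouse, and in 1, Rpl26, above (2.14% and 1.63% of all genes). Without WT + NR replicate 3 the median was -0.14, with 27 members higher. Rps18 was at 167, 102, 203 and 159 CPM in WT + NR and at 46.4, 66.9, 45.99 and 81.5 CPM in hTau.P301S + NR mice (log2 fold change -1.39, SE 0.25, edgeR adjusted p = 0.205). Rpl21, a large subunit protein, was at 76.1, 33.9, 85.3 and 63.8 CPM and at 24.2, 25.8, 28.2 and 22.0 CPM (log2 fold change -1.37, SE 0.25, edgeR adjusted p = 0.224). The highest treated Tau mouse lay below the lowest treated WT mouse in both. Rpl13a (-0.60), Rps13 (-0.58) and Rpl22 (-0.31) were lower without overlap by smaller amounts on the log2 scale. DESeq2 called 4 members here, all lower (Rps18, Rpl21, Rps3a2 and Rps3a3), and 0.343% of all genes.

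The interaction, which asks whether NR acted differently in the 2 genotypes, called no member with all 16 mice (0% of all genes) and none without replicate 1 (0.0114% of all genes). The median log2 difference was -1.81 with 20 members at an unadjusted p under 0.05 when replicate 1 was included (7.92% of all genes), and 0.01 with 0 members when it was not (7.47% of all genes), against medians of -0.02 and 0.008 over all genes. DESeq2 called no member in either setting (0.107% of all genes with all mice and 0.200% without replicate 1), though with all mice it gave no p for 68 of the 87.

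Genotype was then compared over both treatments, with 16 mice and treatment as a covariate. The labels give no sex, and the level of Xist was uneven between the genotypes. Xist was above 10 CPM in replicates 1, 2 and 4 of WT and of WT + NR. Among Tau mice it was above 10 CPM in hTau.P301S replicates 2 and 4 and in hTau.P301S + NR replicate 4. With all mice 83 members were higher in Tau mice (51.6% of all genes were), the median was 0.61 (0.009 over all genes) and no member was called by edgeR (0.120% of all genes were), with 3 at an unadjusted p under 0.05 (7.75% of all genes). DESeq2 called Rps3a2 and Rps3a3 as lower, and 0.632% of all genes to which it gave a p. Without hTau.P301S replicate 1, 11 members were higher and 76 lower (53.7% of all genes were lower), with a median of -0.32 (-0.02 over all genes), and 26 had an unadjusted p under 0.05 (29.9%, against 13.4% of all genes), 25 of them lower. Rps18 and Rpl21 were called as lower, that is 2 of 87, where 0.325% of all genes were called and 0.159% were called as lower. Rps18 fell by 1.41 on the log2 scale (SE 0.20, edgeR adjusted p = 0.0031), and its 7 Tau mice (45.99 to 83.6 CPM) did not overlap with the 8 WT and WT + NR mice (102 to 235 CPM). It was the 1 member without overlap, where 0.165% of all genes lay lower without overlap. Rpl21 fell by 1.11 (SE 0.23, edgeR adjusted p = 0.049), with an overlap between 20.7 to 44.8 CPM and 29.8 to 85.3 CPM. Leaving out WT replicate 2 as well, or also WT + NR replicate 3, left Rps18 as the one member called, at -1.33 and -1.25, and brought the members' median to -0.21 and -0.11, with 21 and 28 members higher. DESeq2 without replicate 1 called 6 members, all lower, adding Rpl13a, Rpsa, Rps3a2 and Rps3a3, where it called 1.21% of all genes.

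The fall of Rps18 and Rpl21 went with other differences between the genotypes. Markers of blood cells were lower in the 7 Tau mice for all 5 genes, of which 3 were called, with a median log2 fold change of -2.84 and a summed level of 1.4004 to 7.08 CPM against 7.45 to 88.0 CPM in WT and WT + NR mice. Markers of the choroid plexus were lower for 5 of 5 genes with none called (median -1.43). Their summed level was 39.9 to 4721 CPM in the 7 Tau mice, within the 19.9 to 9782 CPM of WT and WT + NR mice. Markers of endothelial and mural cells were lower for 5 of 5 with none called (median -0.45), and those of neurons higher for 9 of 9 with none called (median 0.17). Markers of oligodendrocytes were higher for 5 of 5 (median 0.23), those of astrocytes for 5 of 5 (median 0.13) and those of microglia for 4 of 5 (median 0.25), with none called. None of these sums was at 0 in any mouse. The part of cell makeup or of genetic background in the members' differences was not tested. In every comparison of genotypes, the transgene and any difference in genetic background cannot be told apart.

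**Figure D4:**
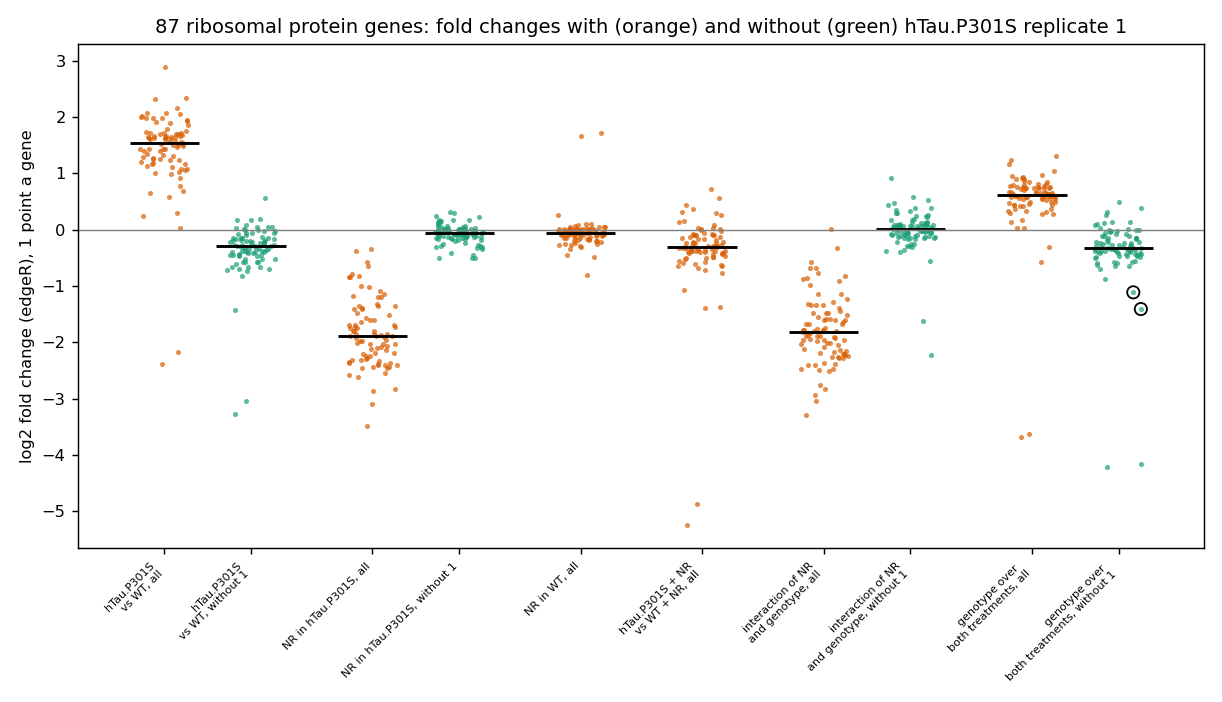
Log2 fold change (edgeR) of each of the 87 members in the 6 comparisons, 1 point a gene, with all mice (orange) and without hTau.P301S replicate 1 (green), the median as a bar, and circles around members called. The cloud of points moves from a median of 1.54 to -0.30 in hTau.P301S against WT and from -1.88 to -0.06 for NR in hTau.P301S, and the only circles are Rps18 and Rpl21 in the last column.

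The genes of the stalk and Rpsa, the small subunit protein known also as a laminin receptor, had log2 fold changes of different size with genotype. Without hTau.P301S replicate 1, over both treatments, Rplp0 had a log2 fold change of -0.01 (SE 0.14), Rplp1 of -0.57 (SE 0.21), Rplp2 of -0.43 (SE 0.17) and Rpsa of -0.57 (SE 0.16), and edgeR called none of them. Rplp0 was at 247, 344, 170 and 198 CPM in WT and at 247, 277 and 239 CPM in hTau.P301S mice 2 to 4, within the WT range. Rplp1 was at 541, 854, 381 and 391 CPM in WT and at 350, 504 and 345 CPM in those hTau.P301S mice. The unequal values of these genes within the same libraries were not tested as a difference. The value of Rpsa leaves out the counts of its copies, which are given below.

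The balance of the subunits was described by the counts of 60S members over those of 40S members in the same library, a ratio that does not depend on scaling. It lay between 1.37 and 1.47 in the 8 WT and WT + NR mice, between 1.45 and 1.55 in the 7 other Tau mice, and at 1.35 in hTau.P301S replicate 1. The means were 1.41 ± 0.04 (SD, n = 4) in WT, 1.42 ± 0.04 for WT + NR, 1.4997 ± 0.03 in hTau.P301S + NR and 1.51 ± 0.05 (n = 3) in hTau.P301S without replicate 1. The ranges overlapped, and no test was made on this ratio. Rps18 and other 40S members with near-identical copies enter its denominator.

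Near-identical copies bear on what several members' counts mean. Nearly all of the 87 members share at least 1 stretch of 50 bases with another annotated gene. Rpl7a shares such stretches with 120 genes. For 5 members the counts were set beside those of a copy, and these were chosen after the values had been seen. Single reads were not examined, and whether reads passed from a member to its copy was not tested. The stretches of 60 coding bases below show how little separates each member from its copy, with the differing bases in capitals and the gene's position on GRCm38.
Rpsa (chromosome 9, 120127689 to 120132369, plus strand): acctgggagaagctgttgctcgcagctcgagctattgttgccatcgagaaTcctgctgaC
Rpsa-ps10 (chromosome 3, 150072658 to 150073542, minus strand): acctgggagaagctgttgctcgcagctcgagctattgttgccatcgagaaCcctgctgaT
Rps18 (chromosome 17, 33951999 to 33956001, minus strand): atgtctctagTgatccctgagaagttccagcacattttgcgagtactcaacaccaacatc
Gm11361 (chromosome 13, 28257528 to 28258134, plus strand): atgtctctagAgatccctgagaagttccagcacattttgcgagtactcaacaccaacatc
Rps3a1 (chromosome 3, 86137940 to 86142702, minus strand): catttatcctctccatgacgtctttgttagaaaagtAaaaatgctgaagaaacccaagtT
Rps3a2 (chromosome 14, 88123017 to 88123808, minus strand): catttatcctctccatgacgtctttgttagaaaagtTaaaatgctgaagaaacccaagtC
Rpl26 (chromosome 11, 68901583 to 68906989, plus strand): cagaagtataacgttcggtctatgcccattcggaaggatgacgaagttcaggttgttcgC
Gm15772 (chromosome 5, 3236431 to 3236868, plus strand): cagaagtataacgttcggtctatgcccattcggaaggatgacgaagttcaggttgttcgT

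Over their coding regions, Rpsa and the processed pseudogene Rpsa-ps10 share 879 of 885 bases, Rps18 and Gm11361 453 of 456, Rps3a1 and Rps3a2 788 of 792, and Rpl26 and Gm15772 433 of 435. The pair Rps27 and Rps27rt, both members, is identical over all 252 coding bases, so that its reads can be divided only by the untranslated ends.

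Rpsa-ps10 was higher in Tau mice, while Rpsa lay lower. Here too the transgene and any difference in genetic background cannot be told apart. Rpsa-ps10 was at 15.4 to 34.01 CPM in the 8 WT and WT + NR mice and at 116 to 161 CPM in the 7 Tau mice without replicate 1 (log2 fold change 2.71, SE 0.16, edgeR adjusted p = 6.4e-08). Rpsa was at 300 to 655 CPM and at 220 to 328 CPM in the same mice. The sum of Rpsa with the 23 genes that share a stretch with it was 322 to 696 CPM and 339 to 476 CPM, and the ratio of the means, Tau over WT, was 0.68 for Rpsa alone and 0.96 for the sum. Gm11361, annotated as protein-coding, was at 2.60 to 11.3 CPM in WT and WT + NR mice and at 10.4 to 18.8 CPM in Tau mice. For Rps18 the ratio of the means was 0.37 alone and 0.45 summed with its 11 sharing genes. Rps18 was thus still called with the sharing genes added (log2 fold change -1.13, edgeR adjusted p = 0.014), whereas Rpl21, which shares stretches with 79 genes of the table, was not.

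In 3 other families single mice stood apart. Rps3a2 was at 50.7 CPM in WT replicate 3, 78.7 CPM in WT + NR replicate 1 and 101 CPM in WT + NR replicate 3, and at 7.35 CPM or less in the other 13 mice. All 3 were WT or WT + NR mice, and the log2 fold change of Rps3a2 with genotype was -4.21 without hTau.P301S replicate 1 (SE 1.10, edgeR adjusted p = 0.154). Rps3a1 was at 139, 203 and 261 CPM in those 3 mice and at 269 CPM or more in the others. Rpl26, a large subunit protein near the exit tunnel, was at 2.26 CPM in WT + NR replicate 1, where Gm15772 was at 216 CPM. In the other 15 mice Rpl26 was at 153 CPM or more, and Gm15772 was above 100 CPM only in WT + NR replicate 3 (192 CPM). Rpl26 was the 1 member without overlap above WT + NR. Its other WT + NR mice, at 152.7 to 188.5 CPM, also lay below the hTau.P301S + NR mice, at 189.3 to 229.0 CPM. With the sharing genes added its log2 fold change in hTau.P301S + NR against WT + NR went from 0.73 to -0.09. Rps27rt was at 102 CPM in WT + NR replicate 1, 115 CPM in hTau.P301S replicate 4 and 93.9 CPM in hTau.P301S + NR replicate 3, the 3 mice in which Rps27 was lowest (45.7 CPM or less). Among the 15 mice without hTau.P301S replicate 1 it was highest, at 121 CPM, in WT replicate 2, where Rps27 was not low (149.6 CPM).

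**Figure D5:**
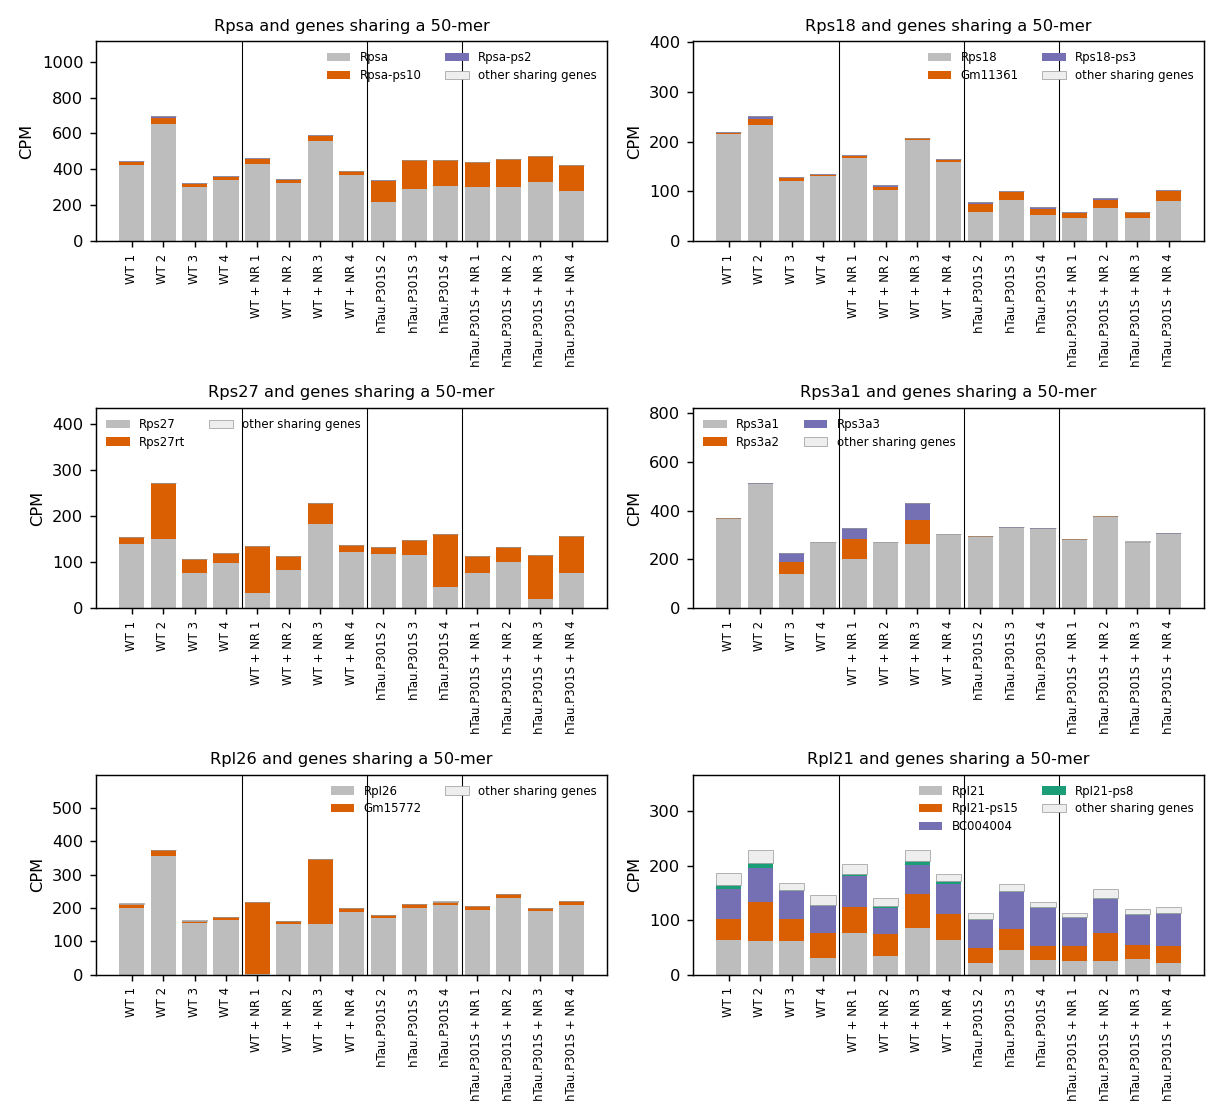
CPM of 6 members (grey) stacked with the genes that share a stretch of 50 bases with them (coloured, the rest in pale grey) in each of 15 mice, without hTau.P301S replicate 1. The orange part, Rpsa-ps10, is larger in the Tau mice at a like total, and the orange parts of Rps27, Rps3a1 and Rpl26 are large in single mice.

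Paralog pairs were compared as the log2 ratio of the 2 counts in 1 library. 4 of 5 pairs could be tested, each for genotype and for NR, and none of the 8 tests passed after adjustment (two-sided exact permutation tests). The lowest p was that of Rpl22l1 to Rpl22 between genotypes: the ratio was 0.32, 0.65, 0.33 and 0.37 in WT mice, 0.31, 0.33, 0.54 and 0.32 in the WT + NR group, 0.63, 0.23, 0.34 and 0.20 in hTau.P301S and 0.15, 0.30, 0.12 and 0.30 in hTau.P301S + NR mice. The mean log2 ratio was lower by 0.60 in Tau mice, at -1.99 ± 0.74 (SD, n = 8) against -1.39 ± 0.41 (exact permutation p = 0.0637, adjusted p = 0.509). Without hTau.P301S replicate 1 the difference was -0.76 (exact permutation p = 0.00816, adjusted p = 0.0653), the largest with 1 mouse left out. It was -0.48 without WT replicate 2 (exact permutation p = 0.151, adjusted p = 0.506). Without WT + NR replicate 3 it was -0.50 (exact permutation p = 0.109, adjusted p = 0.329). The smallest was -0.476, without hTau.P301S + NR replicate 3 (exact permutation p = 0.108, adjusted p = 0.820). Rpl7l1 to Rpl7 differed by -0.27 between genotypes (exact permutation p = 0.271, adjusted p = 0.541). Its ratio was lowest in hTau.P301S replicate 1 (0.0528). Without that mouse the difference was -0.06 (exact permutation p = 0.571, adjusted p = 0.693). Rps27l to Rps27, the first a target of p53, differed by 0.65 with NR (exact permutation p = 0.148, adjusted p = 0.541), and its denominator shares its coding bases with Rps27rt. Without hTau.P301S replicate 1 this difference was 0.47 (exact permutation p = 0.290, adjusted p = 0.693). Rpl36al to Rpl36a differed by 0.02 between genotypes (exact permutation p = 0.965, adjusted p = 0.965), at under 1 CPM of Rpl36al in 15 mice. Without hTau.P301S replicate 1 it differed by 0.26 (exact permutation p = 0.607, adjusted p = 0.693).

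Genes that act with the ribosome were compared for genotype over both treatments, without hTau.P301S replicate 1. Of 18 translation factors and other TOP mRNAs 11 were higher and 7 lower (median 0.01), and of 34 genes of ribosome biogenesis 24 were higher and 10 lower (median 0.04), with none called in either list. Of 15 genes of the mTORC1 pathway 10 were higher and 5 lower (median 0.03), none called. Nuclear-encoded respiratory chain subunits, which are also short mRNAs, were lower for 72 of 80 genes (median -0.24) with none called and 26 lower at an unadjusted p under 0.05. Mitochondrial ribosomal proteins were lower for 56 of 79 (median -0.08) with 1 called as lower, Mrpl48. Of 66 ribosomal protein pseudogenes 3 were called as higher and 2 as lower (median -0.25), with Rps26-ps1 at a log2 fold change of 5.28 (edgeR adjusted p = 4.7e-08). The members' median in the same fit was -0.32. For NR in hTau.P301S mice without replicate 1, Ddit4, an inhibitor of mTORC1, was the 1 gene of the mTORC1 list called (log2 fold change -1.43, SE 0.21, edgeR adjusted p = 0.049), while the members' median was -0.06.

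The members varied together across mice. Over the 15 mice without hTau.P301S replicate 1, the correlation of each member's log2 CPM with the mean of the others had a median of 0.88, and 56 of 87 were above 0.8. The mice share no library, but depth, RNA quality and cell makeup differ among them, and WT replicate 2 and WT + NR replicate 3 set much of the range. The lowest values belonged to Rpl36al (-0.15), Rpl26 (-0.08), Rps10 (0.14) and Rps27rt (0.15). The least variable member was Rpl7l1, with an SD of 0.14 in log2 CPM over these mice, and the most variable were the copies Rps3a2 (2.34) and Rps3a3 (2.33), against a median SD of 0.39 over members and 0.32 over all genes kept. Among genes that are not members, the pattern most like the members' mean over the 15 mice was that of Fau, which encodes a small subunit protein under another symbol (r = 0.970), followed by Eef1b2, a subunit of an elongation factor (0.965), Med28 (0.961), Trappc2l (0.958) and Pfdn5 (0.952).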

How the data were processed

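RNA-seq counts of mouse hippocampus were analysed, 16 mice in 4 groups taken from the sample labels. The authors checked and trimmed reads (FastQC and Trim Galore, per the submitters' processing notes), used STAR for alignment to mm10 and RSEM for counting, and deposited the raw counts of each gene, whole numbers without normalization. The table also holds a gene length that the authors give without a definition, a deposited value of another kind. How reads that match several genes were divided, and whether strand was used, is not given in the sources used here. Total counts were 16490261 to 21915362 per mouse, and intervals were not drawn from them.

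Each comparison was fitted with edgeR 4.0.16 (R 4.3.3; filterByExpr over the 4 groups, TMM, quasi-likelihood test) on all 17555 genes kept, with Benjamini-Hochberg adjustment over them. A call needed an adjusted p under 0.05 with a log2 fold change beyond 0.5 in size, or for the interaction the adjusted p alone. The SE of a log2 fold change was its size divided by the square root of the quasi-likelihood F statistic. CPM were relative to the TMM-scaled total, and log2 CPM used a prior count of 2. Paralog ratios added 0.5 to each count and were tested by exact permutation within strata (scipy 1.17.1), adjusted over 8 tests. Positions and shared stretches came from GENCODE vM21 on GRCm38, and starts from RefSeq.

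The members and lists were chosen with earlier results of these data known. Members named are Rplp0, Rplp1, Rplp2 and Rpsa, the extremes in level, spread and excess, the paralogs, called members, and up to 5 per direction without overlap. Other genes were named after their values were seen. The fit was tested on simulated counts. Alternatives were DESeq2 1.42.0 and its size factors, TMM without members, other filters, no mitochondrial genes, removal of a length trend, a robust fit, the replicate number as a block, Xist (above 10 CPM or not) as a covariate, sharing genes added, and mice left out. P-values set a difference between groups against the spread between these mice. Values of 1 member and of 1 related gene are not reported here singly.

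Same-numbered mice are different animals, and the correlation of their deviations ranged from -0.54 to 0.29 over the comparisons, so the numbers were not taken as pairs.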

Additional observations from a re-analysis of the deposited data

Results flagged for a closer look

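The share of counts taken by ribosomal protein genes was flagged in the hTau.P301S group, because replicate 1 (9.55%) lay far from the other 3 mice (1.12 to 1.39%). The gap to its nearest neighbour was 0.968 of the group's whole range, above Dixon's 95% critical value for 4 samples. Single members with an outlying mouse by the same criterion numbered 83 of 87 in hTau.P301S, each time with replicate 1 as the outlier (95.4%, against 24.5% of all genes kept). They numbered 5 in WT (5.75%, against 7.01% of all genes kept) and 3 in WT + NR (3.45%, against 6.82%), in WT + NR each time replicate 3. In hTau.P301S + NR they numbered 3 (3.45%, against 5.30%). Chance flags about 1 in 20 groups, and the counts in the 3 groups other than hTau.P301S are near that share.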

How the results depend on the processing

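The median log2 fold change of the members in hTau.P301S against WT (1.54 with all mice) was -0.30 without hTau.P301S replicate 1. Without that mouse and with a further change it was -0.30 with all 4 groups in 1 fit (also with DESeq2 or its size factors, -0.30 each), -0.29 with Xist as a covariate, -0.25 with sharing genes added, -0.22 with a length trend removed, -0.21 with the replicate block and -0.04 without WT replicate 2. For NR in hTau.P301S (-1.88) the same settings gave -0.058 without the mouse, and then -0.0512 (1 fit), -0.0498 (DESeq2, 1 fit), -0.0555 (size factors), -0.101 (Xist), -0.0601 (sharing genes), -0.0111 (length) and -0.00193 (block). For the interaction (-1.81) they gave 0.0146 without the mouse, and then 0.0150 (DESeq2), 0.0149 (size factors), 0.00524 (Xist), 0.0120 (sharing genes), 0.0109 (length), -0.00291 (block), -0.23 without WT replicate 2 and -0.06 also without WT + NR replicate 3. For genotype (0.61) they gave -0.32 without the mouse, and then -0.32 (DESeq2), -0.32 (size factors), -0.34 (Xist), -0.32 (block), -0.28 (sharing genes), -0.24 (length), -0.21 without WT replicate 2 and -0.11 also without WT + NR replicate 3. Leaving out 1 mouse at a time, the medians ranged from -0.30 to 1.85 in hTau.P301S against WT, -2.18 to -0.058 for NR in hTau.P301S, -2.14 to 0.0146 for the interaction and -0.32 to 0.76 for genotype, and in each the end nearest to or past 0 came from hTau.P301S replicate 1. For NR in WT and for hTau.P301S + NR against WT + NR no setting moved the median beyond the spread between mice, with -0.24 to 0.18 and -0.42 to -0.14 when 1 mouse was left out.

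The number of members called for genotype was 0 with all mice and ranged from 0 to 2 with 1 mouse left out. It was 2 with DESeq2. Without hTau.P301S replicate 1 it was 2 (also 2 with size factors and 2 with Xist), 6 with DESeq2, 3 with a length trend removed, 1 with sharing genes added, 1 with the replicate block, 1 without WT replicate 2 and 1 also without WT + NR replicate 3. In hTau.P301S + NR against WT + NR it was 4 with DESeq2, 1 with DESeq2 on all groups and 3 without hTau.P301S replicate 1, 1 without a filter, and 0 to 1 with a mouse left out (1, Rpl21, without WT + NR replicate 2). DESeq2 on all groups called 1 (Rps18) for NR in hTau.P301S, and 1 (Rps18) in hTau.P301S against WT without replicate 1. With replicate 1 in its fits, DESeq2 gave no p for 68 to 76 of the 87 members, which were left out of its counts.

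Rps18 in hTau.P301S against WT (0.78) was -0.52 with the replicate block and -0.70 with Xist as a covariate. Without replicate 1 it was -1.43 (-1.44 in 1 fit, -1.44 with DESeq2, -1.44 with size factors, -1.43 with Xist, -1.16 with sharing genes, -1.42 with length, -1.29 with the block and -1.27 without WT replicate 2), and it ranged from -1.43 to 1.10 with 1 mouse left out. Rpl13a (0.64) was -0.0352 with Xist and without replicate 1 -0.58 (-0.58 in 1 fit, -0.58 with DESeq2, -0.58 with size factors, -0.59 with Xist, -0.59 with sharing genes, -0.54 with length, -0.59 with the block and -0.41 without WT replicate 2), ranging from -0.58 to 0.90. With sharing genes added, Rpl21 was 0.17 for genotype with all mice, and Rpl26 was -0.0923 in hTau.P301S + NR against WT + NR. With 1 mouse left out, the log2 ratio of Rps27l to Rps27 ranged from -0.20 to 0.26 between genotypes, that of Rpl36al to Rpl36a from -0.23 to 0.37 between genotypes and from -0.18 to 0.41 with NR, and that of Rpl7l1 to Rpl7 from -0.0573 to 0.24 with NR. The cause of these changes was not tested.

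The replicate block changed no other call, and since same-numbered mice share only a number it tests no pairing. Settings with hTau.P301S replicate 1 left out together with another change, those with Xist and those with sharing genes were chosen after seeing the data. Depth limits Rpl36al, Rpl24 and Rps10, which hold few counts per mouse. With 3 or 4 mice per group, a member that missed the threshold was not shown to be equal between groups.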
